A study of Mus musculus with 4 samples.

Results

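Sertoli cells were followed in whole testis RNA through 10 genes that are known to mark them: *Sox9*, *Gata4*, *Wt1*, *Amh*, *Rhox5*, *Clu*, *Dhh*, *Fshr*, *Aard* and *Cst9*. The members were picked by gene name out of the 25683 genes of the deposited table, a rule that sets no threshold on their values. The table holds RNAseq reads per gene for 4 testis libraries, 2 from control (WT) mice and 2 from mice labelled PARP1ko. The knockout mice carry the *Parp1*tm1Zqw allele, in which a neo cassette interrupts exon 2, and were moved from a 129S to a C57Bl/J background by repeated crossing. The paper also lists C57Bl/J mice but does not say which strain the control libraries came from. The study used the 4 libraries to look at *Parp1* mRNA, other PARP family genes and *Parg* in testis. It reported *Parp1* reads in the knockout on every exon but exon 2. From blots of several tissues it also reported a truncated PARP1 protein, and it describes the line as a hypomorph, not a total knockout. The word knockout is used here as the label of these mice, not for a full loss of PARP1. Neither the age of the mice nor the number of animals behind a library is given in the sources used here, so p-values measure only the spread between these libraries, which may be technical.

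The libraries held from 18103863 to 23503503 reads on exons. The headings of both knockout libraries in the table are alike, so the libraries cannot be tied to a sample and are called the larger (21821073 reads) and the smaller (18103863 reads). The sample titles of the knockout libraries read PARG29b, whereas their genotype labels read PARP1ko. *Parp1* stood at 86.4 and 86.0 CPM (reads scaled to a common library size by TMM) in the controls, 24.1 in the larger and 22.1 in the smaller knockout library, and its log2 fold change was -1.90 (standard error 0.10, edgeR adjusted p = 0.0126). *Parg* stood at 37.2 and 36.0 CPM in the controls, 37.5 in the larger and 46.3 in the smaller knockout library. The knockout libraries differed from each other by a root mean square of 0.55 (log2) over the 15834 genes tested, and the control libraries by 0.34. In bulk RNA, fewer cells of a type and less RNA per cell cannot be told apart.

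Sertoli cells are the somatic cells of the seminiferous tubule. They enclose and nourish the germ cells, seal the inner compartment of the tubule by tight junctions, and pass the signals of follicle-stimulating hormone and testosterone on to the germ cells. SOX9, GATA4 and WT1 are transcription factors that set or keep the identity of the cell, and RHOX5 is a homeobox protein under androgen control. AMH and desert hedgehog are secreted signals, the first made mainly before puberty, and FSHR is the receptor for follicle-stimulating hormone. Clusterin, the product of *Clu*, is secreted, and *Cst9* encodes a protein related to the cystatins. *Aard* encodes a protein rich in alanine and arginine.

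Of the 10 genes 4 have a start region in the RefSeq table for GRCm38.p6, and for *Fshr*, *Dhh* and *Cst9* the RefSeq start is also the start of the gene in the table of reads. The 250 bases before these starts are printed 5′ to 3′ to show the sequence at the starts of a receptor, a signal and a secreted product of the cell, and they were not tested against the levels. Capitals mark short motifs sought on both strands: GATAA (GATA factors), AACAAT (SOX factors), AGGTCA (nuclear receptors such as SF-1), CACCTG and CACGTG (E-boxes) and GGGCGG (GC box). None of the marked stretches overlap.
*Fshr* (chr17:89200676-89200925, minus strand): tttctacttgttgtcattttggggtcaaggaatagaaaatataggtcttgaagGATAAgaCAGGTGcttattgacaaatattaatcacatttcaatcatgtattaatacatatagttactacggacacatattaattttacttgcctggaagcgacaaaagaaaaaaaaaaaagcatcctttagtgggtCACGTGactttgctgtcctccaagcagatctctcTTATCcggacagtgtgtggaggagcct
*Dhh* (chr15:98898541-98898790, minus strand): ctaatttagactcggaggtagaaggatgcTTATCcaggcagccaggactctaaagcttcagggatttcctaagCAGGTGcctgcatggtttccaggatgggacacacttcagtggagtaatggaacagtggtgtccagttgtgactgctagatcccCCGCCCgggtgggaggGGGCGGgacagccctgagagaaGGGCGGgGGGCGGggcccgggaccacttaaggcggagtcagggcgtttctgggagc
*Cst9* (chr2:148834897-148835146, plus strand): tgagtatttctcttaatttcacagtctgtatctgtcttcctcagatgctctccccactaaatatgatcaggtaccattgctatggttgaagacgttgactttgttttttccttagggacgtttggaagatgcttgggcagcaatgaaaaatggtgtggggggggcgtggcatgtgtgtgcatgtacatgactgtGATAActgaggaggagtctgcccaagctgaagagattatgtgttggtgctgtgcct

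The *Fshr* window was poor in G and C (36.8%), held GATAA at 2 places, CACCTG once and CACGTG once, the last beginning 61 bases before the start. Of all 32851 windows of this length, 22.6% hold GATAA, 17.2% CACCTG and 6.02% CACGTG. The *Dhh* window had a GC content of 59.6% and held GGGCGG at 4 places, a motif that 32.7% of all windows have, besides GATAA and CACCTG once each. The *Cst9* window, at 45.6% GC, held GATAA once and none of the other motifs. AACAAT and AGGTCA, present in 9.42% and 14.0% of all windows, were in none of the printed windows. These matches describe letters in the sequence, not bound sites. The RefSeq start of *Rhox5* lies 50234 bases from the start in the table, and its window is not shown.

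Measured per length, the levels of the Sertoli cell genes covered a 445-fold range in control testis. *Clu*, *Cst9* and *Aard* were at the top, the transcription factors and *Dhh* in the middle, and *Amh* and *Fshr* at the bottom. *Clu* stood at 1058 and 1070.4 TPM (reads scaled by exon length and library) in the control libraries, above 99.6% of the genes in the table. It alone gave 53.0% and 54.5% of the TPM summed over the 10 genes. *Cst9* followed with 460.1 and 409 TPM and *Aard* with 353 and 357 TPM. The step from *Aard* down to *Rhox5*, at 39.5 and 36.0 TPM, was the widest in the order at 9.40-fold. *Wt1* stood at 33.0 and 33.8 TPM, *Gata4* at 19.3 and 20.8, *Dhh* at 14.4 and 14.9 and *Sox9* at 13.6 and 14.5. *Amh* stood at 4.51 and 4.05 TPM and *Fshr* at 2.0 and 2.79 TPM, with means above 57.2% and 51.6% of the genes in the table. Among neighbours in this order only *Dhh* and *Sox9* had overlapping control ranges. All 10 genes had reads in each of the 4 libraries, so the chosen markers of Sertoli cells were present in the labelled tissue.

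**Figure D1:**
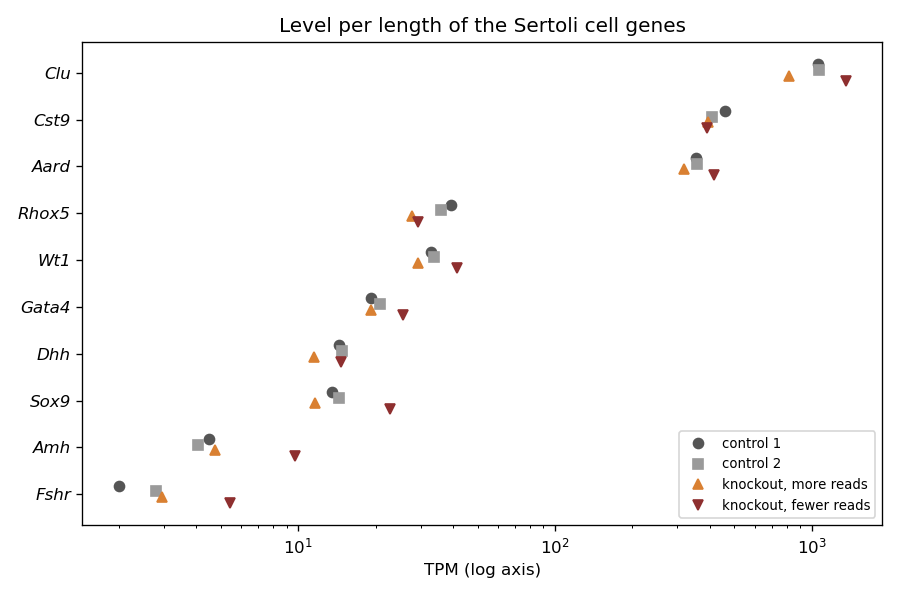
Level per length (TPM, log axis) of the 10 Sertoli cell genes in each of the 4 testis libraries, ordered by the control mean, with the larger knockout library shown as more reads and the smaller as fewer reads. *Clu* lies at 813 TPM or above in each library and *Fshr* at 5.43 TPM or below.

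The order was kept in part in knockout testis. The ratio of *Rhox5* to *Wt1* TPM was 1.2 and 1.07 in the controls, 0.952 in the larger knockout library and 0.706 in the smaller. *Rhox5* was thus above *Wt1* in both control libraries and below it in both knockout libraries. In the second control and the larger knockout library this order is not resolved from counting error. *Rhox5* had 281 and 209 reads there, with exact Poisson intervals of 249 to 316 and 182 to 239 reads. With *Wt1* taken as measured, either interval allows the reverse order. The order also depends on the exon length used for each gene. The ratio of *Sox9* to *Dhh* was 0.943 and 0.973 in the controls, 1.01 in the larger knockout library and 1.55 in the smaller. *Aard* stood above *Cst9* only in the smaller knockout library, at 418 against 390.3 TPM. TPM is not adjusted for the composition of a library, so the genotypes were compared on the TMM-scaled CPM.

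By edgeR's quasi-likelihood test 0 of the 10 genes had an adjusted p under 0.05, and 0 of the 10 had an unadjusted p under 0.05. Over all genes 15 of 15834 passed (0.0947%), and 7.79% had an unadjusted p under 0.05. DESeq2 and limma voom called 0 of the 10 as well, beside 1.22% and 0.0695% of all genes. With other scalings or filters the count of members was 0 too, beside 0.0947% of all genes with RLE scaling, 0.259% without TMM, 0.27% without a filter and 0.0736% with at least 10 reads in every library. The median log2 fold change of the 10 genes was 0.07, beside 0.01 over all genes tested. Of the 10 values 7 were above 0 and 3 below, and of all 15834 genes 8174 were above 0. The 95% interval lay within -1 to 1 on the log2 scale for 8 of the 10 and for 72.5% of all genes tested, and the exceptions among the 10 were *Amh* and *Fshr*. With 2 libraries against 2, an exact permutation test of a single gene cannot give a two-sided p below 0.33.

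The CPM of the genotypes did not overlap for 6 of the 10 genes, beside 37.1% of all genes tested. Both knockout libraries were above both controls for *Gata4*, *Amh*, *Fshr* and *Aard* (17.9% of all genes) and below them for *Rhox5* and *Dhh* (19.2%). *Sox9*, *Wt1*, *Clu* and *Cst9* overlapped between the genotypes.

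**Figure D2:**
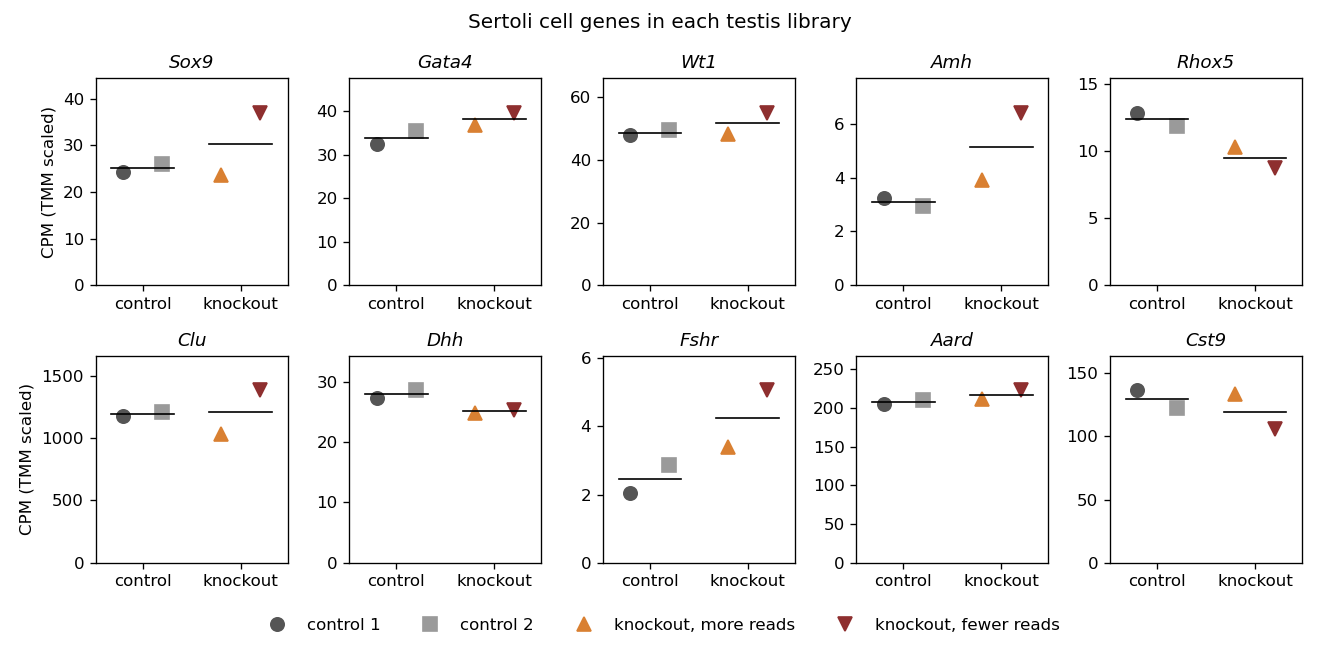
TMM-scaled CPM of each Sertoli cell gene in the 2 control and 2 knockout libraries, each axis starting at 0, with a horizontal line at the mean of each genotype. *Amh* and *Fshr* are higher and *Rhox5* is lower in both knockout libraries than in both controls, and for *Clu* the knockout libraries lie on either side of the controls.

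Of the transcription factors, *Sox9* differed most between the knockout libraries. *Sox9* (chr11:112782224-112787760, plus strand), which starts Sertoli cell differentiation, had 24.2 and 26.1 CPM in the controls, 23.7 in the larger knockout library and 37.0 in the smaller. The larger lay slightly below both controls and the smaller above them. The log2 fold change of 0.27 had a 95% interval of -0.28 to 0.82 (edgeR adjusted p = 0.882). *Gata4* (chr14:63198922-63271692, minus strand), a zinc finger factor that Sertoli and Leydig cells share, had 32.5 and 35.4 CPM in the controls, 36.9 in the larger knockout library and 39.6 in the smaller. The groups did not overlap, but the gap between them was smaller than the distance within either, and the log2 fold change was 0.17 (95% interval -0.10 to 0.45). *Wt1* (chr2:105126529-105173616, plus strand), which maintains the Sertoli cell, had 47.9 and 49.6 CPM in the controls, 48.3 in the larger knockout library and 55.0 in the smaller. Its groups overlapped, and its log2 fold change was 0.08 (95% interval -0.19 to 0.36). Among 8 further regulators used by Sertoli cells 0 passed edgeR's quasi-likelihood test, 0 had an unadjusted p under 0.05, and the median log2 fold change was 0.06. The regulators with the most reads were *Nr5a1*, which encodes SF-1 (0.20), *Dmrt1* (-0.07) and *Nr0b1*, which encodes DAX-1 (0.16).

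*Amh* and *Fshr* had the highest fold changes of the 10 genes and the fewest reads. *Amh* (chr10:80805243-80807648, plus strand) had 3.25 and 2.96 CPM in the controls, 3.90 in the larger knockout library and 6.41 in the smaller. Both knockout libraries were above both controls, and the log2 fold change was 0.73 (standard error 0.32, 95% interval -0.06 to 1.52, edgeR adjusted p = 0.692). *Fshr* (chr17:88984952-89200675, minus strand) had 2.04 and 2.87 CPM in the controls, 3.41 in the larger knockout library and 5.06 in the smaller. Here too the groups did not overlap, with a log2 fold change of 0.78 (standard error 0.34, 95% interval -0.06 to 1.61, edgeR adjusted p = 0.691). The intervals of both genes reached from just below 0 to past 1. In the same order of libraries the values rest on 67, 70, 79 and 123 reads of *Amh* and on 42, 68, 69 and 97 reads of *Fshr*. For *Fshr* the exact Poisson 95% interval on the CPM scale, which covers counting error only, was 1.47 to 2.75 and 2.23 to 3.64 in the controls. It was 2.65 to 4.31 in the larger knockout library, which overlaps both controls, and 4.10 to 6.17 in the smaller, which overlaps neither. For *Amh* it was 2.52 to 4.13 and 2.31 to 3.74 in the controls. The larger knockout library, at 3.09 to 4.86, overlapped both controls, and the smaller, at 5.33 to 7.65, neither. Reads across exon junctions were present in both genes, 37 and 28 for *Amh* and 16 and 33 for *Fshr* in the controls.

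*Dhh* (chr15:98891152-98898540, minus strand), the hedgehog ligand that Sertoli cells send to Leydig and peritubular cells, had 27.3 and 28.6 CPM in the controls, 24.8 in the larger knockout library and 25.4 in the smaller. Both knockout values were below both controls and close to each other, and 7.26% of the genes tested had a smaller difference between the knockout libraries. The log2 fold change was -0.15 (95% interval -0.43 to 0.12, edgeR adjusted p = 0.856). The reads of *Dhh* are less certain than those of the others, since in GENCODE M21 the gene shares 3389 bases with *Rhebl1* on the same strand. It also overlaps the antisense gene *Gm49442* by 1825 bases, and whether reads were counted by strand is not given in the sources used here. Of its exon reads 27 of 563 and 40 of 676 were not unique in the controls, whereas all exon reads of the other 9 genes were unique there. *Rhebl1* itself had 60 and 61 reads in the controls, 64 in the larger knockout library and 50 in the smaller.

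Receptors and targets that answer to AMH and desert hedgehog were measured beside their ligands. Of 8 such genes 0 passed edgeR's quasi-likelihood test, 0 had an unadjusted p under 0.05, and the median log2 fold change was -0.07. *Amhr2*, the receptor of AMH, had 274 and 273 CPM in the controls, 261 in the larger knockout library and 265 in the smaller. Its knockout values were below the controls, where those of *Amh* were above, and its log2 fold change was -0.06 (95% interval -0.32 to 0.20). *Ptch1*, the hedgehog receptor and target, had 12 and 15.5 CPM in the controls, 10.1 in the larger knockout library and 26.8 in the smaller, on either side of the controls, and the log2 fold change was 0.42 (95% interval -0.69 to 1.53). *Smo*, the signal transducer of the pathway, was at -0.09 on the same scale. The transcription factor genes *Gli1*, *Gli2* and *Gli3* had values of -0.43, 0.07 and -0.38, and *Hhip*, which encodes a hedgehog-binding inhibitor, one of 0.34. These last 4 genes were below 3 CPM in each library.

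*Rhox5* (chrX:37804842-37808876, plus strand) had the lowest fold change of the 10 genes. It had 12.9 and 11.9 CPM in the controls, 10.3 in the larger knockout library and 8.71 in the smaller. Both knockout libraries were below both controls, and the log2 fold change was -0.38 (standard error 0.17, 95% interval -0.79 to 0.04, edgeR adjusted p = 0.699). A relative from the lists was looked at beside it after these values were seen. *Rhox8*, of the same X-linked cluster, had 23.8 and 24.9 CPM in the controls, 20.1 in the larger knockout library and 20.5 in the smaller, which gives a log2 fold change of -0.26 (95% interval, -0.55 to 0.03).

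Of the genes with the most reads, *Clu* differed most between the knockout libraries and *Aard* least. *Clu* (chr14:65968483-65981547, plus strand), which encodes the extracellular chaperone clusterin, had 1179.7 and 1207 CPM in the controls, 1034 in the larger knockout library and 1382 in the smaller. The knockout values lay below and above both controls, and the log2 fold change was 0.02 (95% interval -0.43 to 0.46). *Aard* (chr15:52040107-52045722, plus strand) had 205 and 210.4 CPM in the controls, 211 in the larger knockout library and 222 in the smaller. Its groups did not overlap but touched, and its log2 fold change was 0.06 (95% interval -0.19 to 0.32). *Cst9* (chr2:148835147-148838738, plus strand) had 136 and 123 CPM in the controls, 133 in the larger knockout library and 106 in the smaller. Only the smaller lay outside the control range, and the log2 fold change was -0.12 (95% interval -0.47 to 0.24).

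Relatives of *Cst9* in the cystatin family were read beside it. Of 6 relatives 5 passed the filter on low counts, and 0 passed edgeR's quasi-likelihood test or had an unadjusted p under 0.05. *Cst8*, *Cst13* and *Cstl1*, with log2 fold changes of 0.02, -0.01 and -0.34, were like *Cst9* lower in the smaller knockout library than in the larger. *Cstl1* was the farthest apart, with 73.5 and 83.4 CPM in the controls, 90.6 in the larger knockout library and 33.5 in the smaller. *Cst12* had a log2 fold change of 0.02 and *Cst3*, which encodes the widely expressed cystatin C, one of 0.10. Unlike *Cst9*, both were higher in the smaller knockout library than in the larger, by 0.39 and 0.01 (log2). *Cst11*, with 0 to 4 reads in a library, was not tested.

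The share of reads on introns, read in the controls only, differed widely among the 10 genes. Over all genes introns held 5.87% and 5.59% of the gene reads. *Clu* was far below this at 0.234% and 0.321%, and *Sox9*, *Cst9* and *Aard* were between 0.992% and 2.73%. *Fshr* was far above, at 26.3% and 19.0%, and so was *Dhh* at 21.0% and 20.1%. *Amh*, at 9.46% and 18.6%, and *Wt1*, at 9.11% and 11.9%, were above it too. *Gata4* was at 3.04% and 2.33% and *Rhox5* at 5.02% and 6.02%. The shares of *Amh* and *Fshr* rest on few intron reads, 7 and 16 for *Amh* and 15 and 16 for *Fshr*. *Dhh* overlaps other genes as given above, and their part in its share was not tested.

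Further Sertoli cell genes were taken from a list of 31, of which 30 passed the filter. By edgeR's quasi-likelihood test 0 of the 30 had an adjusted p under 0.05, 0 passed DESeq2 or limma voom, and 3 (10%) had an unadjusted p under 0.05, near the 7.79% of all genes tested. *Cdh2*, which encodes the N-cadherin of junctions with germ cells, had a log2 fold change of 0.42 (95% interval 0.12 to 0.73, edgeR adjusted p = 0.454). The other two, named after their values were seen, were the defensin gene *Defb36* (0.79, 95% interval 0.14 to 1.43) and *Eppin*, which encodes a protease inhibitor (-0.46, 95% interval -0.83 to -0.10). The median log2 fold change of the 30 was 0.09, with 22 values above 0, beside 8174 of all 15834 genes tested. The CPM of 10 of the 30 did not overlap between the genotypes (33.3%, beside 37.1% of all genes tested). Junction genes had a median of 0.14 over 7 genes, with the espin gene *Espn* at 0.17 and the tight junction gene *Cldn11* at 0.28. Signals had a median of 0.09 over 5 genes, with the inhibin genes *Inha* at 0.06 and *Inhbb* at 0.10 and the stem cell factor gene *Kitl* at 0.09. Other products had a median of 0.05 over 10 genes, with the protease gene *Ctsl* at -0.09, the protease inhibitor gene *Serpina5* at 0.21 and the vimentin gene *Vim* at 0.28. *Inhba*, with 1 to 8 reads in a library, was not tested.

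**Figure D3:**
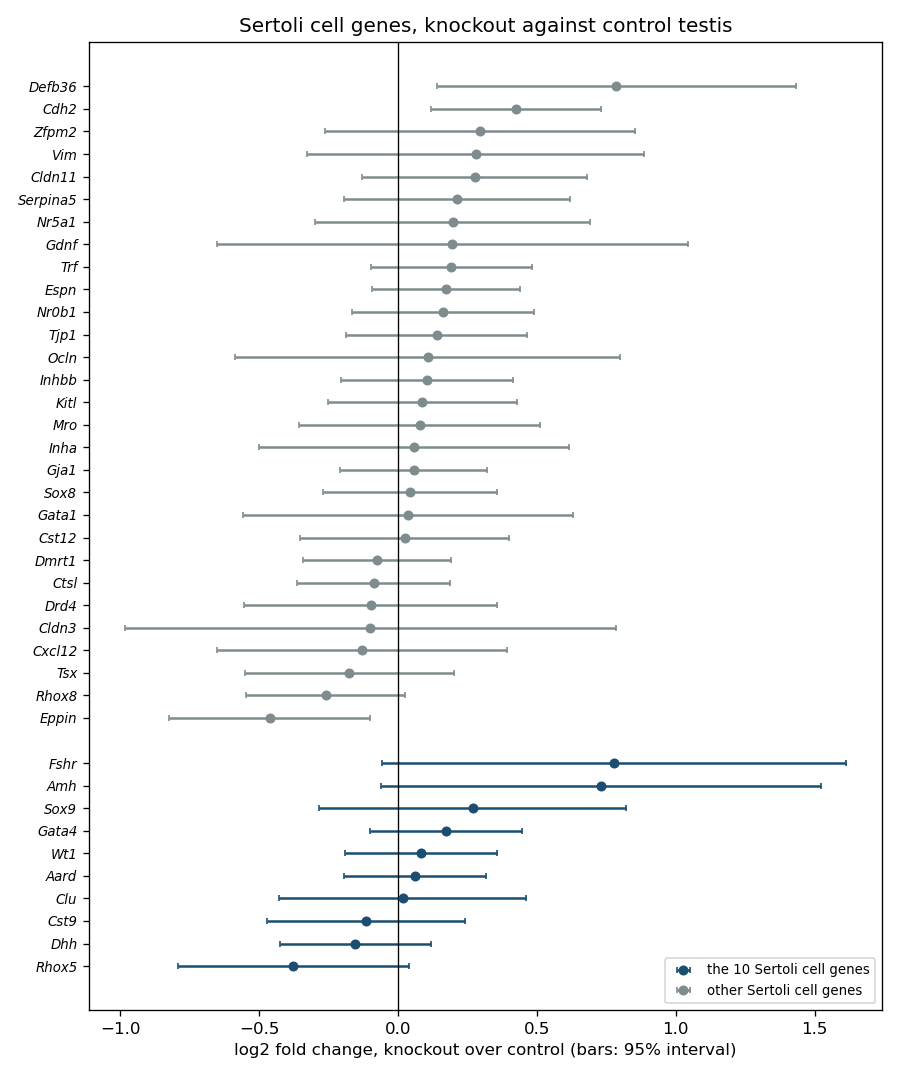
Log2 fold change of knockout over control testis with its 95% interval for the 10 Sertoli cell genes and 29 further Sertoli cell genes, from edgeR's quasi-likelihood fit. The intervals of all 10 genes cross 0, and those of *Defb36*, *Cdh2* and *Eppin* do not, although their adjusted p is above 0.05.

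Several of the Sertoli cell genes differed in level between the knockout libraries. The median log2 difference of the 10 genes from the control mean was 0.01 in the larger knockout library and 0.19 in the smaller. For the 30 further genes these medians were -0.04 and 0.23, and over all genes tested -0.01 and 0.00. Of the 10 genes 8 were higher in the smaller knockout library than in the larger, all except *Rhox5* and *Cst9*, and so were 24 of the 30 and 8029 of all 15834. The differences of *Dhh*, *Aard* and *Gata4* were small, with 7.26%, 16.7% and 22.2% of all genes tested having a smaller one. The largest such log2 differences among the 10 were those of *Amh* (0.70), *Sox9* (0.64) and *Fshr* (0.56), and the controls differed by -0.13, 0.11 and 0.48 in these genes. The CPM summed over the 10 genes was 1671 and 1698 in the controls, 1529 in the larger knockout library and 1888 in the smaller. Without *Clu* the sum was 492 and 490.5 in the controls, 496 in the larger and 506 in the smaller, so most of the difference between the sums was that of *Clu*.

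Markers of some other testis cells also differed between the knockout libraries. Those of elongating spermatids, 8 of 8 tested, summed to 22465 and 22869 CPM in the controls, 29717 in the larger knockout library and 13516 in the smaller. All 8 were lower in the smaller, with a median log2 difference of -1.10 between the knockout libraries. Markers of Leydig cells, 8 of 8 tested, summed to 1374 and 1739 CPM in the controls, 1231 in the larger and 2627 in the smaller, and all 8 were higher in the smaller. Most of the difference between the knockout sums was that of *Insl3*, which had 619.8 and 779.8 CPM in the controls, 597 in the larger and 1796 in the smaller. Without *Insl3*, left out after its values were seen, the sum was 754 and 959 in the controls, 634 in the larger and 831 in the smaller, which then lay within the control range. All 6 markers of round spermatids were lower in the smaller, 5 of 6 of macrophages were higher, and those of spermatogonia had a median log2 difference of 0.01. The part of these cells in the values of *Sox9*, *Amh*, *Fshr* and *Clu* was not tested. The epididymis also expresses *Clu* and *Rhox5*, and of 6 of its markers *Lcn5* and *Ovch2* were at 0 reads in all 4 libraries, while *Crisp1*, *Adam28* and *Adam7* had 0 to 4 reads in each. The sixth, *Rnase10*, had 35 and 40 reads in the controls, 0 in the larger knockout library and 1 in the smaller, and so was lower in both knockout libraries, as *Rhox5* was, without passing the test (unadjusted p = 0.000367, edgeR adjusted p = 0.102). Its part in the values of *Rhox5* and *Clu* was not tested.

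**Figure D4:**
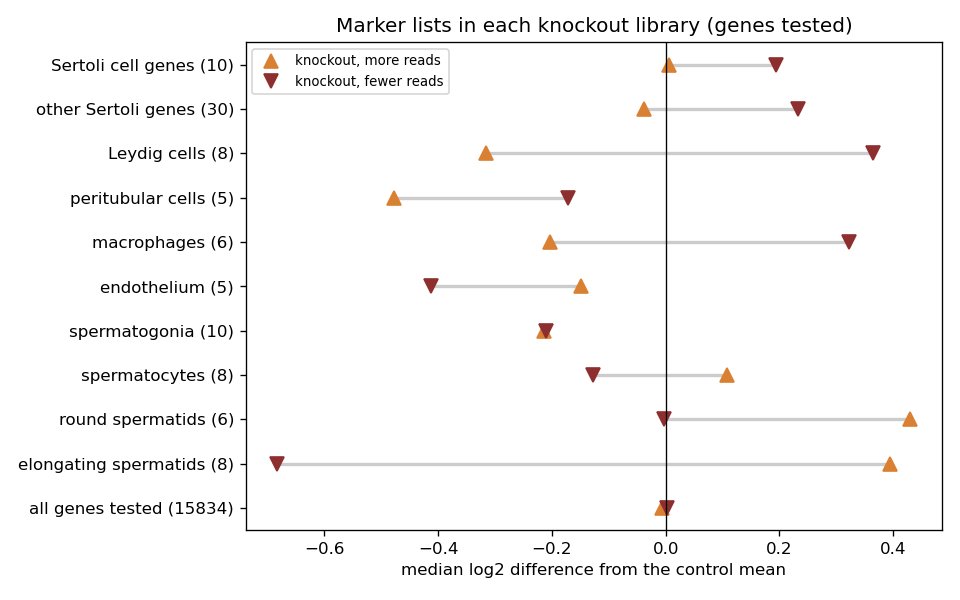
Median log2 difference of marker lists from the control mean in the larger (more reads) and the smaller (fewer reads) knockout library, with the number of genes tested in each list. The 10 Sertoli cell genes lie at 0.01 and 0.19 and the elongating spermatid markers at 0.39 and -0.68.

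The calls depended on which knockout library was kept. Without the larger, 6 of the 10 genes passed edgeR's quasi-likelihood test, beside 23.9% of all genes tested, with log2 fold changes of 0.56 for *Sox9*, 1.05 for *Amh*, 1.03 for *Fshr*, 0.21 for *Clu*, -0.50 for *Rhox5* and -0.29 for *Cst9*. Without the smaller, *Clu* alone passed, at -0.21, beside 17.0% of all genes tested, and *Amh* and *Fshr* were at 0.33 and 0.47. Of the 30 further Sertoli cell genes 14 passed without the larger and 5 without the smaller. Both fits take the lone knockout library to vary as the controls do. Without the first or the second control 0 of the 10 passed, beside 0.0492% and 0.0495% of all genes.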

How the data were processed

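Testis RNA of control and knockout mice was enriched for poly(A) and sequenced (NovaSeq, paired ends of 150 bases). Trimming and alignment to GRCm38 were done by the authors in CLC Genomics Workbench, and a single table was deposited with read counts per gene and TPM. Its columns of the authors' own comparison (group maximum, fold changes and p-values) were left out, as were 52 of the 67 value columns that belong to single libraries. The deposited counts of total exon reads were used for all 4 libraries. Unique, intron and junction reads were read for the controls only. TPM was computed from exon reads and exon length for each library, which returned the deposited TPM of the controls.

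Counts were filtered with filterByExpr (minimum 10), scaled by TMM and tested by the quasi-likelihood test of edgeR 4.0.16 (R 4.3.3), with genotype alone in the model and Benjamini-Hochberg adjustment over all 15834 genes at 0.05. Standard errors were obtained by dividing each log2 fold change by the root of its F. Single libraries were compared on log2 CPM with a prior count of 2. The procedure was also run on simulated counts in which all 4 libraries vary alike. The knockout libraries here differ more than the controls, so that run does not measure the error of the test on these data. Alternatives were DESeq2 1.42.0, limma 3.58.1 (voom), other scalings and filters, and leaving out each library. The members and lists were chosen with earlier results of these data known. The text names all members, the genes of the AMH, hedgehog and cystatin lists, and of each other Sertoli list those past the threshold or otherwise up to 3 with the most reads, apart from genes said to be chosen later. Some genes of these lists enter the counts and medians but are not reported here. The motif CACGTG was added after the sequences were seen. Overlaps are those of GENCODE M21 and sequences those of RefSeq.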

Additional observations from a re-analysis of the deposited data

How the results depend on the processing

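The direction and the call of the 10 Sertoli cell genes were the same in 60 of 60 comparisons with DESeq2, limma voom, RLE scaling, no TMM, no filter on low counts and at least 10 reads in every library. Over all genes 15 passed the threshold with edgeR's quasi-likelihood test, 193 with DESeq2, 41 without TMM, 52 without the filter and between 8 and 3890 with 1 library left out. With 1 library left out between 0 and 6 of the 10 genes and between 0 and 14 of the 30 further Sertoli cell genes passed, the higher numbers without the larger knockout library. Without the smaller knockout library 4 genes turned, with log2 fold changes of -0.089 for *Sox9*, -0.012 for *Wt1*, -0.21 for *Clu* and 0.043 for *Cst9*, and the cause was not tested. Over all left-out libraries *Sox9* ranged up to 0.56, *Wt1* up to 0.18, *Clu* up to 0.21 and *Cst9* down to -0.29, and the other 6 genes kept their direction, *Amh* between 0.33 and 1.05 and *Fshr* between 0.47 and 1.05. Of the mean log2 TPM values 5 of 20 moved by more than the spread between libraries with a pseudocount of 1 and 0 of 20 with 0.1. The planned comparison with unique exon reads was not run, since these columns were not used for the knockout libraries. No paired analysis was possible because the columns of both knockout libraries carry the same replicate number. Depth limits *Fshr* and *Amh*, with 42 to 123 reads in a library.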
